A study of Mus musculus with 16 samples.

Results

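The dystrophin-associated complex and its partners at the sarcolemma, the plasma membrane of the muscle fibre, were followed through 8 genes: Dmd, Utrn, Dag1, Sgca, Sgcb, Dtna, Sspn and Itga7. The genes were given as a list of names, without a threshold on measured values, but with earlier results of these data known. Every probe whose accession led to one of these symbols was taken, which gave 16 probes, and the 8 genes are among 17178 genes with a probe on the array. RNA of mouse quadriceps, a thigh muscle, was measured on 16 arrays, 1 per animal, 8 h after a single intraperitoneal injection. The groups were KLF15 KO mice given 2 mg/kg dexamethasone (dex), a synthetic glucocorticoid, KLF15 KO mice given vehicle, WT mice given the same dose of dexamethasone and WT mice given vehicle, with 4 animals in each. The labels used here give no strain, sex, age or design of the KO allele. The study asked which glucocorticoid responses of muscle depend on KLF15, a Krüppel-like transcription factor that glucocorticoids induce.

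Dystrophin ties the actin cytoskeleton beneath the fibre membrane to a group of membrane proteins, which in turn hold the laminin of the basement membrane outside. Dystroglycan is the core of the link, the sarcoglycans and sarcospan form a subcomplex that steadies it, and dystrobrevin and the syntrophins carry signalling proteins on the inner face. Utrophin is the close relative of dystrophin that is concentrated at the neuromuscular junction of adult fibres, and the integrin alpha 7 chain belongs to a second laminin receptor of the same membrane. Loss of dystrophin causes Duchenne muscular dystrophy, which is treated with glucocorticoids, and loss of several other members causes limb-girdle or congenital dystrophies.

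Levels are given as log2 of the processed spot intensity relative to the 75th percentile of the same array, so 0 is the 75th percentile of its spots and a difference of 1 is a 2-fold change. Levels of different probes are not comparable with each other, and each probe was compared only with itself across arrays. Changes were tested with limma over the 32394 probes that 4 or more of the 16 arrays measured well above background, with Benjamini-Hochberg adjustment over all of them, and a change was called at an adjusted p below 0.05. For a count of genes, the brightest probe of each gene, here its main probe, stood for the gene. All 16 probes of the complex were well above background on all 16 arrays and none was saturated.

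The arrays carried the marks of their labels. Klf15, tested with its main probe, was 13.9-fold lower in dexamethasone-treated KO muscle than in dexamethasone-treated WT muscle and 15.7-fold lower in vehicle-treated KO muscle than in vehicle-treated WT muscle, with no overlap between the groups, although where the probe lies relative to the deletion was not stated in the labels or files used. Fkbp5, an established glucocorticoid receptor target, rose with dexamethasone 6.74-fold in KO and 7.90-fold in WT muscle on its main probe. Its probe A_52_P337899 rose 6.08-fold in KO and 5.33-fold in WT muscle. Its probe A_52_P481493 rose 2.50-fold in KO muscle but was not called in WT muscle (1.22-fold, limma adjusted p 0.377). All 10 markers of the muscle fibre were well above background on every array. Some arrays stood apart. The neutrophil marker list, 8 genes, was raised by a median of 6.55 log2 units over the gene means on KO dexamethasone replicate 1 and 7.86 on WT dexamethasone replicate 3, against 0.83 or less on each of the other arrays. The same 2 arrays were highest for erythroid markers, at 1.44 and 1.83. The slow-fibre list, 7 genes, ranged from -1.42 to 2.26 among arrays and had no called gene in any comparison, although its median change with dexamethasone was 0.56 in KO and 1.38 in WT muscle. On the leading principal axis, which held 33.5% of the variance, all 3 arrays from slide 7 (KO dexamethasone 2, KO vehicle 1 and WT vehicle 3) lay away from the rest together with WT dexamethasone 1. In whole muscle, fewer cells of a type and less RNA per cell cannot be told apart.

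With dexamethasone, 3 of the 8 genes were called in KO muscle, Dtna and Dag1 higher and Itga7 lower, where 11.6% of all genes were called. In WT muscle 3 of 8 were called, Dtna and Dmd higher and Sspn lower, against 12.5% of all genes. Averaged over the genotypes 5 of 8 were called, Dtna, Dag1 and Dmd higher and Utrn and Itga7 lower, against 19.5% of all genes. The 3 comparisons share arrays, so the calls of the averaged one are not separate evidence. The median change of the 8 genes was 0.05 in KO muscle and 0.00 in WT muscle on the log2 scale, beside 0.05 and -0.04 over all genes, so the complex had no common direction. Without the 2 arrays of raised neutrophil markers the counts were 2 in KO muscle (Dag1 lost, adjusted p 0.055), 2 in WT muscle (Sspn lost, adjusted p 0.0527) and 5 averaged. Without the 4 arrays that lay away on the leading principal axis, an alternative chosen after seeing the data, they were 2, 2 and 5.

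**Figure D1:**
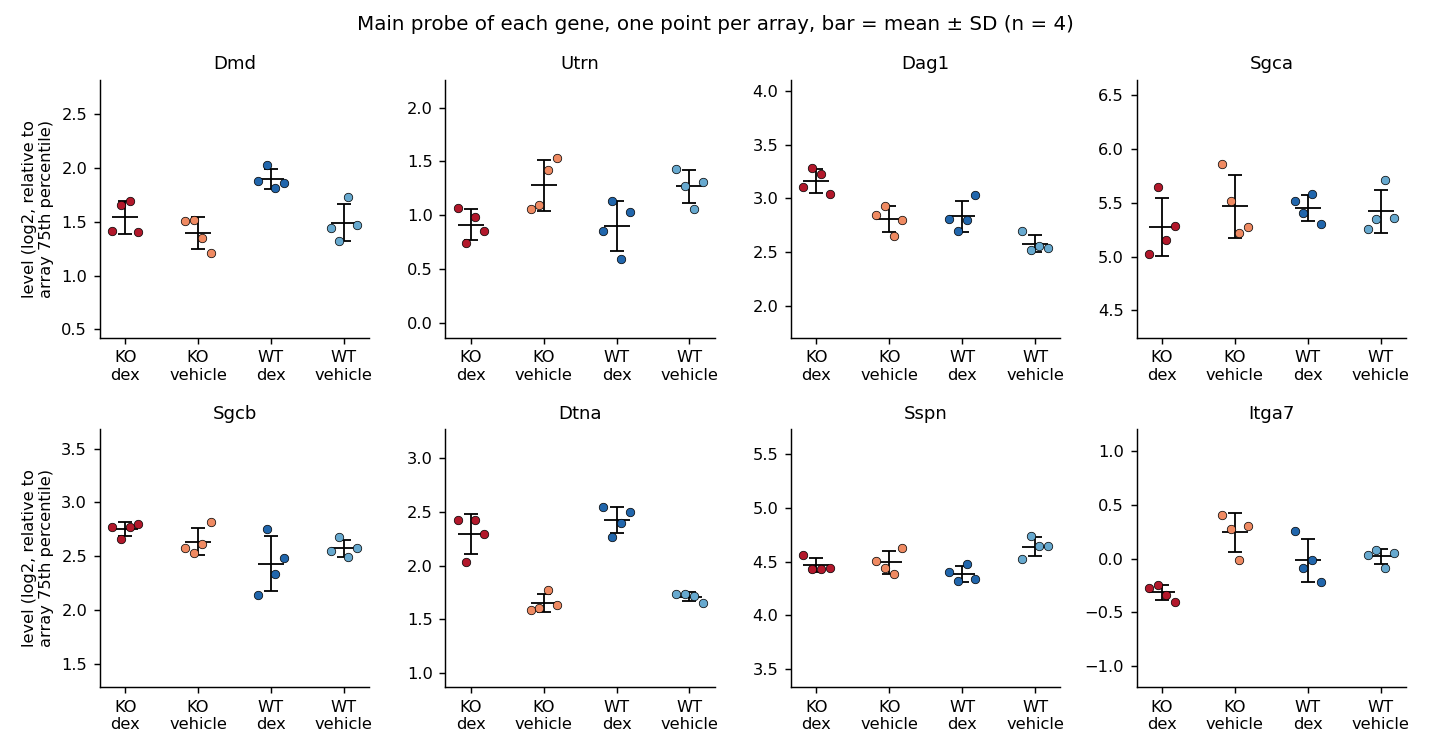
Level of the main probe of each gene on every array, as log2 relative to the 75th percentile of the array, in panels of equal height. Points are arrays and bars are the mean ± SD of 4 arrays; Dtna is higher with dexamethasone in both genotypes without overlap, Itga7 is lowest in dexamethasone-treated KO muscle, and the 4 groups of Sgca overlap.

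Dtna encodes alpha-dystrobrevin, which binds dystrophin and the syntrophins and helps to keep acetylcholine receptors in place at the junction. Its main probe read 2.43, 2.04, 2.42 and 2.29 in dexamethasone-treated KO muscle, against 1.59, 1.60, 1.77 and 1.63 in vehicle-treated KO muscle. In WT muscle it read 2.55, 2.27, 2.39 and 2.50 with dexamethasone, against 1.73, 1.74, 1.72 and 1.65 with vehicle. Every dexamethasone array lay above every vehicle array, in both genotypes. The gene rose 1.57-fold in KO muscle (0.65 on the log2 scale, SE 0.10, limma adjusted p 0.000721) and 1.64-fold in WT muscle (0.71, SE 0.10, limma adjusted p 0.000379). The response did not differ detectably between the genotypes: KO minus WT gave -0.07, with a 95% interval from -0.36 to 0.23. Within slides that held both treatments the rise was 0.80, 0.52 and 0.45 in KO muscle and 0.61 on the only such WT slide. With slide as a fixed block, in which arrays alone on their slide carry no weight, the KO change was 0.59 and passed (limma adjusted p 0.0139), whereas the WT change was 0.61 and no longer passed (limma adjusted p 0.0547); with slide as a random block it was 0.67 and passed (limma adjusted p 0.00014).

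Of the other probes of Dtna, A_52_P108607 and A_51_P184300 also rose in both genotypes. They gave 0.73 (SE 0.10) and 0.63 (SE 0.11) in KO muscle and 0.68 (SE 0.10) and 0.58 (SE 0.11) in WT muscle. The fourth probe, A_52_P141715, gave another picture. In KO muscle it read -0.75, -0.98, -0.77 and -0.82 with dexamethasone, against -0.80, -0.79, -1.04 and -0.95 with vehicle, and the groups overlapped. The WT arrays read -0.60, -0.97, -0.62 and -0.72 with dexamethasone, against -1.30, -1.45, -1.42 and -1.37 with vehicle, with no overlap. The change was 0.06 in KO muscle (SE 0.10, limma adjusted p 0.8) and 0.66 in WT muscle (SE 0.10, limma adjusted p 0.000678). Under vehicle this probe was 0.49 higher in KO than in WT muscle (SE 0.10, limma adjusted p 0.0646), and the difference between the 2 responses was -0.59 (SE 0.14, unadjusted p 0.000712, adjusted p 0.129), so neither passed. The vehicle difference passed with slide as a random block (0.46, limma adjusted p 0.0126), with the filter on all 16 arrays (limma adjusted p 0.0402) and without WT dexamethasone replicate 2 (limma adjusted p 0.0264), but not with slide as a fixed block (0.45, limma adjusted p 0.248). Within slides it was 0.51, 0.27 and 0.62. Its accession is the same as that of the main probe and of A_52_P108607, and which exons the 4 probes reach is not given in the files.

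Dmd encodes dystrophin itself. Its main probe, printed in 10 spots on each array and so averaged over them, read 1.42, 1.66, 1.70 and 1.40 in dexamethasone-treated KO muscle, against 1.51, 1.52, 1.35 and 1.21 in vehicle-treated KO muscle, and the groups overlapped. In WT muscle it read 1.88, 2.03, 1.82 and 1.86 with dexamethasone, against 1.44, 1.33, 1.74 and 1.47 with vehicle, with no overlap. Dmd rose 1.32-fold in WT muscle (0.40, SE 0.11, limma adjusted p 0.0301), and the change in KO muscle was 0.15 (SE 0.11, limma adjusted p 0.529). The difference between the responses was -0.26, with a 95% interval from -0.60 to 0.08 (limma adjusted p 0.51). The call in WT muscle was lost when any of WT dexamethasone replicates 1, 2 and 4 or WT vehicle replicates 1, 2 and 4 was left out, with an adjusted p of at most 0.105. It was also lost with slide as a fixed block (0.39, limma adjusted p 0.135), with the deposited values (limma adjusted p 0.0952), with the 2 WT groups alone and with 2 further alternatives, and it held with slide as a random block (0.38, limma adjusted p 0.00752). The second probe, A_52_P306697, gave 0.30 (SE 0.13, limma adjusted p 0.193) in KO muscle and 0.33 (SE 0.13, limma adjusted p 0.125) in WT muscle. Its mean over both genotypes, 0.31 (SE 0.09, limma adjusted p 0.0292), was close to the 0.28 of the main probe (SE 0.08, limma adjusted p 0.0253).

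Utrn encodes utrophin, which can bind the same partners as dystrophin. Its main probe read 1.07, 0.74, 0.98 and 0.85 in dexamethasone-treated KO muscle, against 1.06, 1.10, 1.42 and 1.53 in vehicle-treated KO muscle, and 0.85, 1.13, 0.59 and 1.03 in dexamethasone-treated WT muscle, against 1.43, 1.27, 1.06 and 1.31 in vehicle-treated WT muscle. The groups overlapped slightly in each genotype. The change was -0.37 in KO muscle (SE 0.14, limma adjusted p 0.136), -0.37 in WT muscle (SE 0.14, limma adjusted p 0.118) and -0.37 averaged over both (SE 0.10, limma adjusted p 0.0206), a 1.29-fold fall. Without a slide term, the averaged change alone passed. With slide as a block the change in KO muscle passed as well, at -0.44 with a fixed block (limma adjusted p 0.0352) and -0.41 with a random block (limma adjusted p 0.00784), and on slides 4, 6 and 7 it was -0.46, -0.57 and -0.32. The averaged call was lost under median scaling (limma adjusted p 0.144) and normexp background correction (limma adjusted p 0.179).

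The second Utrn probe, A_52_P257071, moved further. It read -0.12, -0.27, -0.21 and -0.34 in dexamethasone-treated KO muscle, against 0.31, 0.26, 0.50 and 0.72 in vehicle-treated KO muscle. The WT arrays read -1.13, -0.84, -0.93 and -0.92 with dexamethasone, against 0.41, 0.15, -0.27 and 0.17 with vehicle. Neither pair of groups overlapped, and all dexamethasone-treated WT arrays lay below all other arrays. The probe fell 1.61-fold in KO muscle (-0.68, SE 0.14, limma adjusted p 0.00579) and 2.10-fold in WT muscle (-1.07, SE 0.14, limma adjusted p 0.000279). It was 1.65-fold higher in KO than in WT muscle under dexamethasone (0.72, SE 0.14, limma adjusted p 0.0122), and 0.71 higher on the slide that held both groups. The main probe gave 0.01 for the same comparison (SE 0.14, limma adjusted p 0.987), so the 2 probes disagreed on the genotype. The second probe no longer passed in that comparison under 4 of 13 alternatives: without the 2 arrays of raised neutrophil markers (0.69, limma adjusted p 0.0791), with slide as a fixed block (0.69, limma adjusted p 0.223), with median scaling (0.53, limma adjusted p 0.155) and with normexp background correction (0.38, limma adjusted p 0.708). It passed with slide as a random block (0.70, limma adjusted p 0.00502). The difference between its responses, 0.39 (SE 0.20, limma adjusted p 0.422), did not pass. The third probe, A_52_P294955, was dimmer and spread from -4.32 to -2.55, and it passed in no comparison.

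Dag1 encodes dystroglycan, whose alpha chain binds laminin outside the fibre and whose beta chain binds dystrophin. Its main probe read 3.10, 3.28, 3.22 and 3.04 in dexamethasone-treated KO muscle, against 2.85, 2.93, 2.65 and 2.80 in vehicle-treated KO muscle. In WT muscle it read 2.81, 2.69, 2.79 and 3.03 with dexamethasone, against 2.69, 2.52, 2.56 and 2.54 with vehicle. The groups did not overlap in either genotype, and dexamethasone-treated KO muscle had the highest levels of the 4 groups. Dag1 rose 1.28-fold in KO muscle (0.36, SE 0.09, limma adjusted p 0.027). In WT muscle the change was 0.25 (SE 0.09, limma adjusted p 0.101), and averaged over both it was 0.31 (SE 0.07, limma adjusted p 0.00514). The KO call ended when KO dexamethasone replicate 2 or 3 or KO vehicle replicate 1, 3 or 4 was left out, with an adjusted p of at most 0.0847. It was also lost in 10 of 15 other alternatives, among them median scaling (0.30, limma adjusted p 0.439), quantile normalization (0.29, limma adjusted p 0.067) and slide as a fixed block (0.36, limma adjusted p 0.0655), and it held with slide as a random block (0.35, limma adjusted p 0.00402). On slides 4, 6 and 7 the KO change was 0.31, 0.39 and 0.44. The second probe, A_52_P419118, gave 0.22 in KO muscle (SE 0.17, limma adjusted p 0.545) and 0.17 in WT muscle (SE 0.17, limma adjusted p 0.569).

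Promoter windows of RefSeq, build GRCm38.p6, were scanned for 6 of the 8 genes, from 250 bases before to 50 bases after each listed start. No window of Dtna or Itga7 was scanned. Those of Dmd, Utrn and Dag1 are shown as those of called genes with a match to either motif below; Sspn, also called, has 2 windows with no match to either. Capitals mark the glucocorticoid receptor half-site (AGAACA on either strand) and the CACCC box that Krüppel-like factors bind (CACCC on either strand). Matches of both motifs were allowed to share letters, as 2 CACCC matches do in the second Dmd window and in the Utrn window. Dmd has 2 listed starts and Dag1 has 2 overlapping windows, of which the one further upstream is printed.
Dmd chrX:82948620-82948919 (plus strand): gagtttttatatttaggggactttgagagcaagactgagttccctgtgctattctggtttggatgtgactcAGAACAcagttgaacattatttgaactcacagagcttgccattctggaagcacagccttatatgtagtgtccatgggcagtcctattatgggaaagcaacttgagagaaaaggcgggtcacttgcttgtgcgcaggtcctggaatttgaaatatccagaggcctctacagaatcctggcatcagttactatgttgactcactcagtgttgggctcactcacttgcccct
Dmd chrX:85048045-85048344 (plus strand): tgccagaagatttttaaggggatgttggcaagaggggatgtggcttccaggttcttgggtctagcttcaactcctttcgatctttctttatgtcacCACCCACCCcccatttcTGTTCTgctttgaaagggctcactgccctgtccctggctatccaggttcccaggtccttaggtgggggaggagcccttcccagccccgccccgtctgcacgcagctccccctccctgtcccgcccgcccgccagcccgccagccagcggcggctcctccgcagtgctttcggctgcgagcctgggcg
Utrn chr10:12861686-12861985 (minus strand): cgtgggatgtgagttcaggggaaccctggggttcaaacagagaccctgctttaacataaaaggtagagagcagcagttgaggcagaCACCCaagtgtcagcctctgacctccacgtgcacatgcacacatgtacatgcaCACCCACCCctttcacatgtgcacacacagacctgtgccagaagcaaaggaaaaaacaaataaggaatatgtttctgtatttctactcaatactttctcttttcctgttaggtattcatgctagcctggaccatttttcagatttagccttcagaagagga
Dag1 chr9:108263909-108264208 (minus strand): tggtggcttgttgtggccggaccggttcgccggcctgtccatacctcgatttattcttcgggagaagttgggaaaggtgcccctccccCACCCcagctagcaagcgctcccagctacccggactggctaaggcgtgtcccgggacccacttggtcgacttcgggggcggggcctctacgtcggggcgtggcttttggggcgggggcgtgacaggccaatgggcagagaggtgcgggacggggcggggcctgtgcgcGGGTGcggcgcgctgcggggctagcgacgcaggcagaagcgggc
The half-site occurred 1 time in each window of Dmd and 0 times in the windows of Utrn, Dag1, Sgca, Sgcb and Sspn, and 19.0% of 32851 promoter windows of this length hold it. The CACCC box occurred 0 and 2 times in the windows of Dmd, 3 times in that of Utrn, 1 and 2 times in those of Dag1, 2 times in that of Sgca, 3 times in that of Sgcb and 0 times in both of Sspn. Of all windows, 57.5% hold it. The full glucocorticoid response element, an inverted repeat of the half-site with a 3-base gap, was in none of the 9 windows of the complex and in 0.009% of all windows. These matches describe letters within the windows and were not measured as bound sites.

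Sgca and Sgcb encode alpha- and beta-sarcoglycan, which are part of one transmembrane subcomplex. Sgca read 5.03, 5.65, 5.15 and 5.28 in dexamethasone-treated KO muscle, against 5.86, 5.52, 5.22 and 5.28 in vehicle-treated KO muscle, and 5.52, 5.41, 5.58 and 5.30 in dexamethasone-treated WT muscle, against 5.26, 5.35, 5.71 and 5.36 in vehicle-treated WT muscle. The 4 groups overlapped, and the change was -0.19 in KO muscle (95% interval from -0.54 to 0.16) and 0.03 in WT muscle (95% interval from -0.32 to 0.38). Sgcb had a main probe with changes of 0.12 in KO muscle (95% interval from -0.13 to 0.37) and -0.14 in WT muscle (95% interval from -0.39 to 0.10), and a second probe, A_51_P433960, with 0.17 and 0.11. No probe of either gene passed in any comparison. The 2 Sgcb probes followed each other weakly across the 16 arrays (Pearson's r 0.17, given as a description).

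Sspn encodes sarcospan, a small membrane protein that sits with the sarcoglycans. Its probe read 4.56, 4.43, 4.43 and 4.44 in dexamethasone-treated KO muscle, against 4.51, 4.44, 4.39 and 4.63 in vehicle-treated KO muscle, and the groups overlapped. The WT arrays read 4.40, 4.32, 4.48 and 4.33 with dexamethasone, against 4.53, 4.74, 4.64 and 4.64 with vehicle, without overlap. Sspn fell 1.19-fold in WT muscle (-0.26, SE 0.08, limma adjusted p 0.0496), just past the threshold, and the change in KO muscle was -0.02 (SE 0.08, limma adjusted p 0.916). Leaving out single arrays ended this call in 13 of 16 cases, with an adjusted p of at most 0.155. In this set it held only without KO vehicle replicate 4, WT dexamethasone replicate 3 or WT vehicle replicate 1. The call was also lost in 11 of 15 other alternatives, with a change of -0.02 under median scaling (limma adjusted p 0.949) and -0.30 with slide as a fixed block (limma adjusted p 0.124), and it held with slide as a random block (-0.26, limma adjusted p 0.00866). The difference between the responses was 0.23, with a 95% interval from -0.01 to 0.47 (limma adjusted p 0.399).

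Itga7 encodes the integrin alpha 7 chain, which pairs with integrin beta 1 to bind laminin. Its probe read -0.28, -0.25, -0.34 and -0.40 in dexamethasone-treated KO muscle, against 0.41, 0.28, -0.02 and 0.30 in vehicle-treated KO muscle, and every dexamethasone array was below every vehicle array. In WT muscle it read 0.25, -0.09, -0.01 and -0.22 with dexamethasone, against 0.04, 0.08, -0.08 and 0.05 with vehicle, and the groups overlapped. Itga7 fell 1.47-fold in KO muscle (-0.56, SE 0.11, limma adjusted p 0.00503), and the change in WT muscle was -0.04 (SE 0.11, limma adjusted p 0.876), or 0.20 under median scaling (limma adjusted p 0.406). The difference between the responses was -0.52 (SE 0.16, 95% interval from -0.86 to -0.19, unadjusted p 0.00507) and did not pass after adjustment (limma adjusted p 0.193). All arrays of dexamethasone-treated KO muscle also lay below those of dexamethasone-treated WT muscle (-0.30, SE 0.11, limma adjusted p 0.198). On slides 4, 6 and 7 the KO change was -0.58, -0.39 and -0.65, and it passed with slide as a fixed block (-0.54, limma adjusted p 0.0268). Beside it, the endothelial marker list, 7 genes of which 4 fell with dexamethasone in KO muscle, had medians from -0.20 to -0.03 in dexamethasone-treated KO muscle, against 0.25 to 0.37 in vehicle-treated KO muscle, and all 7 of its genes were well above background on every array. The median change with dexamethasone in KO muscle was -0.40 for the endothelial list, -0.38 for satellite cells and -0.36 for Schwann cells and nerve. It was 0.01 for smooth muscle and pericytes, with 1 of 8 genes lower, and 0.20 for the muscle fibre. In WT muscle these medians were -0.03, -0.31, -0.16, -0.08 and 0.08. The part of any of these cell types in the change of Itga7 was not tested.

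**Figure D2:**
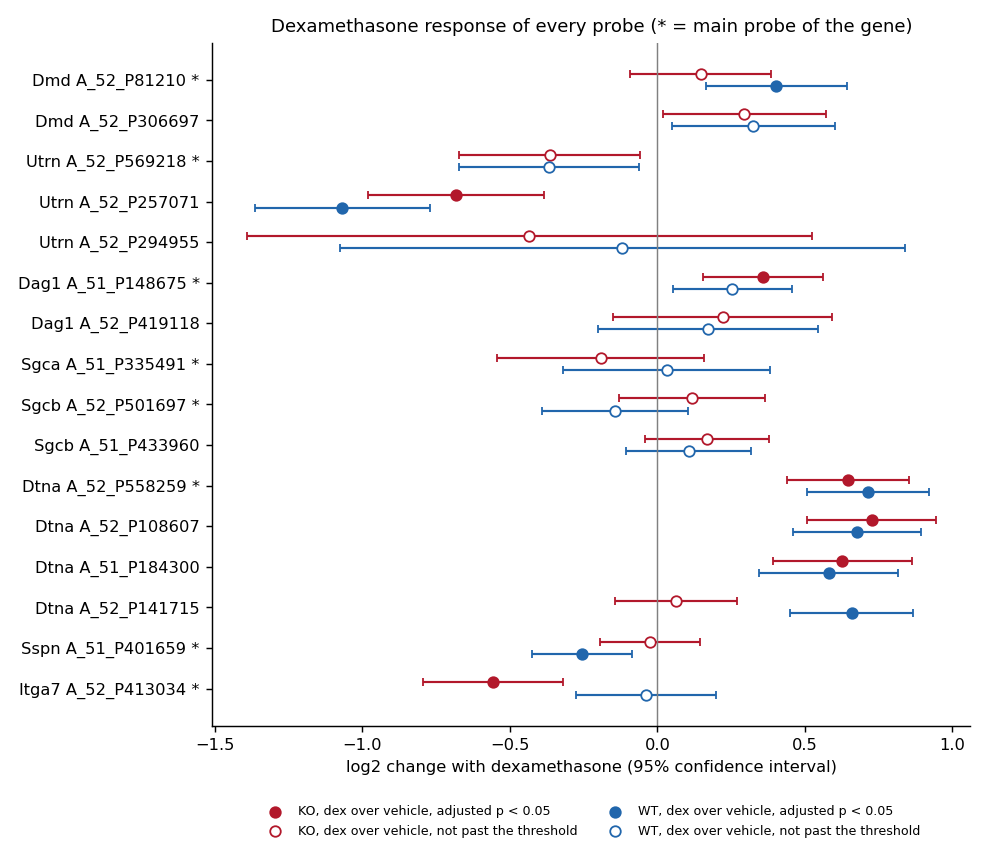
Log2 change with dexamethasone, dexamethasone over vehicle, for every probe of the 8 genes in KO muscle (red, upper of each pair) and WT muscle (blue, lower), with 95% confidence intervals from limma on 4 arrays a group. Filled points passed an adjusted p of 0.05; all 4 probes of Dtna were called in WT muscle and 3 of them in KO muscle, and the call of Itga7 is in KO muscle.

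The direct comparison of KO with WT muscle called none of the 8 genes. Under dexamethasone 0 of 8 passed, against 2.39% of all genes, and 4 had an unadjusted p below 0.05: Dag1 (0.33, SE 0.09) and Sgcb (0.32, SE 0.12) higher in KO muscle, and Dmd (-0.35, SE 0.11) and Itga7 (-0.30, SE 0.11) lower. Their limma adjusted p-values were 0.0886, 0.177, 0.122 and 0.198. Under vehicle 0 of 8 passed, against 0.31% of all genes, and 1 had an unadjusted p below 0.05, Dag1 (0.23, SE 0.09, limma adjusted p 0.565). Averaged over the treatments 0 of 8 passed, against 1.71% of all genes, and 3 had an unadjusted p below 0.05. Dag1 was nearest to the threshold (0.28, SE 0.07, limma adjusted p 0.0573). Of all 32394 probes, 4973 had an unadjusted p below 0.05 under dexamethasone, 2521 under vehicle and 3924 averaged over the treatments. Of the interaction, the KO response minus the WT response, 0 of 8 passed by limma, against 0% of all genes. Only Itga7 of the 8 had an unadjusted p below 0.05 there, as did 4201 of the 32394 probes. Of the 16 probes, the second Utrn probe was the only one called between genotypes.

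The order of the groups differed from gene to gene. For Dmd it ran from dexamethasone-treated WT muscle, whose arrays lay above all others, to dexamethasone-treated KO, vehicle-treated WT and vehicle-treated KO muscle, whose neighbours overlapped. For Dag1 dexamethasone-treated KO muscle stood highest without overlap with the next group, dexamethasone-treated WT muscle, and the lower neighbours overlapped. For Dtna the dexamethasone groups overlapped each other, as did the vehicle groups, and the step between them was the only one without overlap. For Itga7 dexamethasone-treated KO muscle was lowest without overlap with the group above it. For Sgca all neighbours overlapped.

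**Figure D3:**
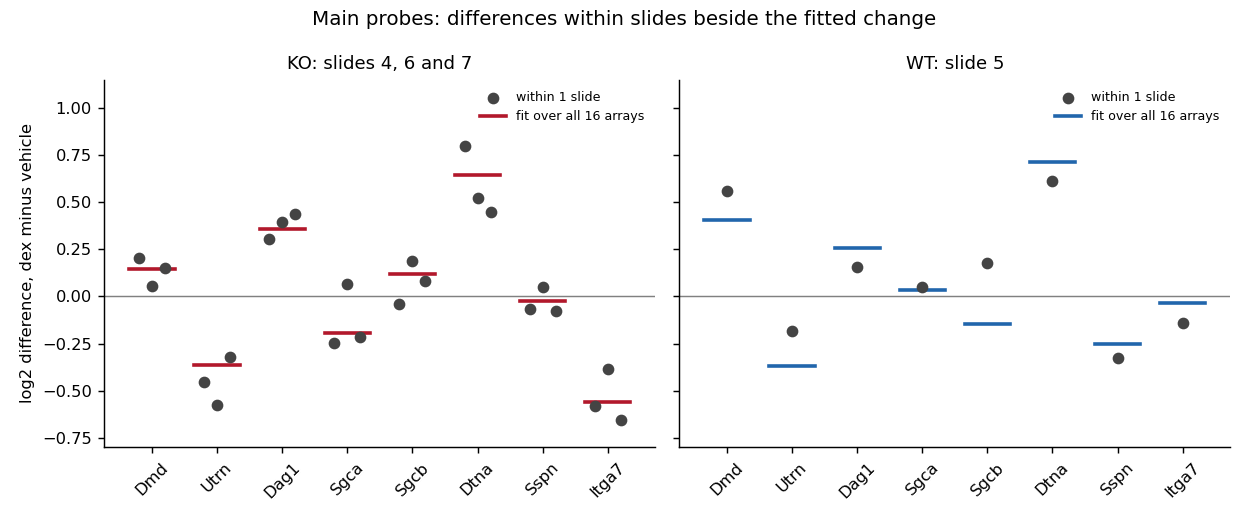
Log2 difference between a dexamethasone and a vehicle array of the same slide (points) beside the change fitted over all 16 arrays (lines) for the main probe of each gene, with KO muscle on the left and WT muscle on the right. The points of Dtna lie above 0 on all 4 slides and those of Itga7 below 0 on all 4, whereas Sgca, Sgcb and Sspn have points on both sides of 0 in KO muscle.

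Among 10 other genes of the dystrophin complex, 0 fell with dexamethasone in KO muscle and 2 fell in WT muscle. The list's median change was 0.05 in KO and -0.09 in WT muscle, beside 0.05 and -0.04 over all genes. Sntb2, a syntrophin, fell in WT muscle by 0.77 on the log2 scale (SE 0.18, limma adjusted p 0.0139), and its other probe passed in the same direction. Cav3, the muscle caveolin, fell in WT muscle by 0.32 (SE 0.08, limma adjusted p 0.0164). The remaining sarcoglycans, Sntb1, Dtnb and Nos1 passed in neither genotype.

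The enzymes that place the laminin-binding sugar chains on dystroglycan numbered 16 on the array, of which 0 rose with dexamethasone in KO muscle and 0 passed in WT muscle. Averaged over the genotypes 1 fell, Dpm3 (-0.32, SE 0.09, limma adjusted p 0.0193), a subunit of the enzyme that makes the mannose donor. The list median was -0.06 in KO and 0.03 in WT muscle.

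On the outer side, 16 of 18 genes of the laminin, integrin and basement membrane link were measured, and with dexamethasone 0 rose and 5 fell in KO muscle and 0 rose and 7 fell in WT muscle. Of all 15174 genes, 871 fell in KO muscle and 957 in WT muscle. The list was chosen with earlier results of these data known. The list median was -0.18 in KO and -0.24 in WT muscle, beside 0.05 and -0.04 over all genes. Nid2, the linker protein nidogen-2, fell 1.81-fold in KO muscle (-0.86, SE 0.15, limma adjusted p 0.00241) and 1.79-fold in WT muscle (-0.84, SE 0.15, limma adjusted p 0.00277). Col15a1, a basement membrane collagen, fell 1.67-fold in KO muscle (-0.74, SE 0.16, limma adjusted p 0.00937) and 2.01-fold in WT muscle (log2 SE 0.16, limma adjusted p 0.00132). Col6a1 and Col6a2, chains of collagen VI, which anchors the basement membrane to the surrounding matrix and whose loss causes another group of dystrophies, fell by 0.72 (SE 0.16) and 0.77 (SE 0.23) in KO muscle and by 0.60 (SE 0.16) and 0.81 (SE 0.23) in WT muscle. These matrix genes are made largely by interstitial cells. Beside them, 1 of 6 fibroblast markers fell in KO muscle and 1 in WT muscle, with medians of 0.09 and -0.33. Of 6 macrophage markers 1 and 3 fell, with medians of -0.36 and -0.62. Of 7 endothelial markers 4 fell in KO muscle and 0 in WT muscle, with medians of -0.40 and -0.03. The part of those cells in the fall was not tested. Under dexamethasone 1 gene of the list differed between genotypes, Fermt2, an integrin activator, at 0.39 higher in KO than in WT muscle (SE 0.09, limma adjusted p 0.0346), with its other probe of opposite sign.

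Of 16 of 18 measured genes of the costamere, the lattice that joins the outer sarcomeres to the membrane, 0 rose and 2 fell with dexamethasone in KO muscle, and 2 rose and 1 fell in WT muscle. Sync, the dystrobrevin-binding filament protein syncoilin, fell 1.49-fold in KO muscle (-0.57, SE 0.10, limma adjusted p 0.00196) and 1.73-fold in WT muscle (-0.79, SE 0.10, limma adjusted p 0.000211), with its other probe called in the same direction in both. Dtna and Sync thus went opposite ways with dexamethasone in both genotypes. Plec, the linker plectin, fell in KO muscle by 0.54 (SE 0.11, limma adjusted p 0.00429). Both other probes of Plec had the same sign but were not called. Flnc and Vcl, filamin C and vinculin, rose in WT muscle by 0.57 (SE 0.16, limma adjusted p 0.0303) and 0.53 (SE 0.15, limma adjusted p 0.0343). Of the 2 other probes of Flnc, 1 had the same sign and was called, and the remaining probe did not share the sign. The other probe of Vcl had the same sign but was not called. Between genotypes under dexamethasone, Sync was 0.45 higher in KO than in WT muscle (SE 0.10, limma adjusted p 0.0257), with its other probe of the same sign but not called. Sptb, beta-spectrin, was 0.79 lower in KO muscle (-0.79, SE 0.17, limma adjusted p 0.0264), and both of its other probes had the opposite sign.

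Of 11 of 12 measured membrane repair genes, 1 rose and 1 fell in KO muscle and 0 passed in WT muscle, where the median was -0.17. The annexins Anxa1, induced by glucocorticoids in many cells, and Anxa6 gave 0.58 (SE 0.17, limma adjusted p 0.0475) and -0.66 (SE 0.11, limma adjusted p 0.00201) in KO muscle. Of 11 of 12 measured genes of the neuromuscular junction, where utrophin and dystrobrevin are also found, 2 rose and 2 fell in KO muscle. In WT muscle 1 rose. The median change of the junction list was -0.33 in KO and -0.16 in WT muscle, beside 0.05 and -0.04 over all genes. Musk, the receptor kinase that organises the junction, rose 3.21-fold in KO muscle (1.68, SE 0.28, limma adjusted p 0.00177) and 3.14-fold in WT muscle (1.65, SE 0.28, limma adjusted p 0.0021), with no overlap. Dok7, the activator of that kinase, rose in KO muscle by 0.91 (SE 0.22, limma adjusted p 0.0158). It was not called in WT muscle, but averaged over the genotypes it rose by 0.80 (SE 0.15, limma adjusted p 0.00208). Ache, acetylcholinesterase, and Rapsn, which clusters acetylcholine receptors, fell in KO muscle by 0.73 (SE 0.21, limma adjusted p 0.0381) and 0.44 (SE 0.12, limma adjusted p 0.0309). Between genotypes none of the repair or junction genes passed under either treatment, and no gene of the 6 lists passed for the interaction, where no gene of the array did.

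Across the 16 arrays, the 3 genes of 15173 whose levels followed each member most closely were listed with Pearson's r as a description, since all points share the arrays and the 4 groups. Dtna was followed by Klhl2 (r 0.96) and Hbegf (r 0.96), with dexamethasone changes of 1.12 and 1.86 in KO muscle and 0.91 and 1.78 in WT muscle. Itga7 was followed by Zfp692 (r 0.92), Eno2 (r 0.92) and Mvk (r 0.91), with changes of -0.52, -0.61 and -0.41 in KO muscle and -0.05, 0.09 and 0.01 in WT muscle. Dmd was followed by Thumpd1 (r 0.95) and Zfp384 (r 0.95), Utrn by Mknk1 (r 0.93) and Dag1 by Commd6 (r 0.87). Sgca was followed by Abhd17a (r 0.96) and Sgcb by Mrpl43 (r 0.91). Sspn was followed by 2 genes of the extracellular matrix, Thbs3 (r 0.90) and Mfap2 (r 0.90), and by Ppih (r 0.87). Their changes were -0.19, -0.29 and -0.12 in KO muscle and -0.47, -0.89 and -0.325 in WT muscle. No member was among the 3 genes closest to another member.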

How the data were processed

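Quadriceps RNA of 16 mice was amplified with the WT-Ovation One-Direct kit, labelled with Cy3 and hybridised to 1-colour Agilent 4x44K arrays, per the labels' protocols. The files deposited for each array give linear spot intensity, extracted with Feature Extraction 10.7.3.1 on a grid of build mm9, per the file headers. A deposited table of log2 values of the same arrays, made by steps that no label or header states, served as an alternative. Control and outlier spots were dropped, log2 of the processed signal was scaled to the 75th percentile of each array, and spots of a probe were averaged. Accessions were matched without version to RefSeq symbols (GRCm38.p6): 24844 of 41174 probes had 1 symbol, 0 had several and the rest had none. Group means were fitted with limma 3.58.1 (R 4.3.3) over all 16 arrays, which shared 1 estimate of the spread, in 7 comparisons; with 4 arrays a group, their number limits the precision. From 66.3% to 80.6% of spots were well above background. Replicate numbers were not used as pairs in the main fit. Same-numbered arrays correlated from -0.66 to 0.41 in their deviations from group means. These deviations also hold differences between slides, so the correlations cannot exclude a pairing. The fit had no slide term; slide entered only as a fixed or random block in alternatives and through differences within slides. Each context list names up to 4 called genes per comparison, those of largest change; likeness lists take the 3 highest correlations. The members and lists were chosen with earlier results of these data known. In data simulated for the KO response over 32394 probes, 100 probes drawn at random changed by 0.5 and 100 by 1 log2 unit. Of these, 12% and 43% were called. Fewer probes changed there than the 3388 called in KO muscle, which makes the adjustment stricter. The shares are therefore not the power for the 8 genes. The planned normexp correction used the spot median, since the files hold no spot mean. Results of some genes of the context lists are not reported here.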

Additional observations from a re-analysis of the deposited data

Results flagged for a closer look

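Among 64 probe-and-group sets of 4 arrays, 1 held an array far from the others: the Sspn probe A_51_P401659 read 4.5639 on KO dexamethasone replicate 1, against 4.4336 to 4.4375 on the other arrays of that group. The gap was 0.97 of the whole range of the group. Chance sets about 1 in 20 such groups apart, and this array is one of the pair with raised neutrophil markers. Without that pair the change of Sspn in KO muscle was -0.06 (limma adjusted p 0.806).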

How the results depend on the processing

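No called result of the 8 genes changed direction under any alternative run. In KO muscle the calls of Dtna and Itga7 were lost under normexp background correction alone. In that correction background-subtracted signals reached -65493, and it left 0 members called in KO muscle, 0 in WT muscle and 1 averaged over genotypes. With slide as a fixed block, where 3 arrays alone on their slide carry no weight, 0 were called in WT muscle and 2 averaged. Fitting only the 2 groups compared gave 1 in WT muscle, and median scaling gave 2 averaged. With the replicate number as a block, 2 members were called in KO muscle, 1 in WT muscle and 5 averaged, and the block changed no other count of members; the calls of Dag1 in KO muscle (adjusted p 0.0687) and of Dmd (adjusted p 0.0517) and Sspn (adjusted p 0.11) in WT muscle were lost. For KO against WT under dexamethasone, slide as a random block (consensus correlation 0.561) gave 1, Dmd, and the deposited log2 values gave 1, Dag1. For KO against WT averaged over treatments, quantile normalization, the deposited values, the filter on all 16 arrays, slide as a random block and subtraction with an offset of 50 (added after seeing the data) gave 1 each, Dag1. Leaving out single arrays gave 2 to 3 members in KO muscle, 1 to 3 in WT muscle, 4 to 5 averaged, 0 to 1 for KO against WT under dexamethasone and averaged, and 0 under vehicle and for the interaction.

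Over all probes, 3388 were called with dexamethasone in KO muscle, against 1906 with median scaling, 491 with normexp, 6668 with the random block and 2063 without the 4 arrays that lay away on the leading principal axis. In WT muscle 3886 were called, against 255 with normexp, 1131 with the fixed block, 2271 in the 2 groups alone and 2348 without WT vehicle replicate 2. Averaged, 5883 were called, against 1175 with normexp. For KO against WT under dexamethasone 927 were called, from 53 with the fixed block to 1675 with the random block, with 539 under the replicate block and 497 without the 2 arrays of raised neutrophil markers. Under vehicle 75 were called, from 18 with normexp to 685 with the random block, and averaged 528, from 68 to 1597. The interaction called 0, or 714 with the random block and 128 without KO vehicle replicate 4. Median scaling moved the median change of all probes in WT muscle to 0.17, against -0.07, and the share of higher calls there to 80.05%, against 44.44%. The cause of these shifts was not tested.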
